A study of Mus musculus with 12 samples.

Results

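The growth hormone, insulin-like growth factor (IGF) and cytokine receptor genes described here are 10 genes of mouse liver, of 27975 gene names on the array. They are Ghr, Stat5b, Igf1, Igfals, Socs2, Cish, Bcl6, Lepr, Lifr and Egfr, taken with every array probe that carries one of these names. Together they have 30 probes of 41174, and 27 of these probes, from 9 of the genes, were measured. A probe counted as measured when at least 1 group had a sample signal well above background on each of its 3 arrays. Lepr was not measured.

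The values come from 12 two-colour arrays, 3 in each of 4 groups of male mice. The groups were Cyp1b1 null mice on the high-fat diet, Cyp1b1 null mice on the low-fat diet, wild-type mice on the high-fat diet and wild-type mice on the low-fat diet, with C57BL6/J given as the strain. All mice were weaned at 3 weeks of age onto food with 60% fat (high) or 10% fat (low) and were killed at 14 weeks. Every array compared 1 liver sample, labelled with Cy3, with pooled liver RNA of wild-type low-fat mice, labelled with Cy5. A log2 ratio above 0 therefore means more signal in the sample than in that pool. The deposited description gives 3 pooled samples for an array and does not say whether replicates came from separate mice, so the spread between arrays may be partly technical. The sources used here do not state in which cells or exon Cyp1b1 was inactivated.

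Growth hormone is secreted by the pituitary and binds its receptor, Ghr, on hepatocytes. The receptor works through the kinase Jak2, which phosphorylates Stat5b, and Stat5b then enters the nucleus and switches on genes such as Igf1, Igfals, Socs2 and Cish. In rodents the male pituitary releases growth hormone in pulses and the female pituitary releases it more steadily, and this difference sets many of the sex-biased genes of the liver. Lifr and Lepr are receptors of the same cytokine receptor class as Ghr, whereas Egfr is a receptor tyrosine kinase.

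Over the whole series, an array had between 18375 and 23439 probes whose sample signal was well above background. The label of liver hepatocytes was checked against marker lists. Measured were 9 of 10 hepatocyte markers, 12 of 12 for Kupffer cells, 10 of 10 for endothelium and 10 of 10 for stellate cells and fibroblasts. The first wild-type low-fat array stood apart in the Kupffer and stellate cell lists. Its median ratio was 0.09 for Kupffer cell markers, where the other arrays had -1.48 to -0.07, and 0.50 for stellate cell markers, where the others had -1.47 to -0.42. In the hepatocyte list the third wild-type low-fat array stood apart, at -0.24 where the others had 0.15 to 0.56. That array was also lowest in the bile duct list, at -1.25. It was the lowest array for the brightest probes of Egfr (-0.47), Ghr (-0.38) and Bcl6 (-2.52). The median hepatocyte difference, null minus wild-type on the low-fat diet, was 0.28. The median of the stellate cell and fibroblast list also differed by genotype on the low-fat diet. It was -1.27, -0.94 and -1.24 in null livers and 0.50, -0.56 and -0.78 in wild-type livers, with a median difference of -0.78. The genes of this list did not move together. Col1a1, Col1a2, Dcn, Lum and Col3a1 differed by -1.29 to -0.90, Pdgfrb by -0.67 and Acta2 by -0.30. Des differed by -0.06, whereas Reln and Lrat were higher in null livers, by 0.66 and 0.58. The part of these markers in the genotype differences given here was not tested. The Cyp1b1 probe was brighter in all 6 null arrays (0.65 to 1.68) than in all 6 wild-type arrays (-1.11 to 0.16). The limma adjusted p was 0.211 on the high-fat and 0.0760 on the low-fat diet. No source used here says whether that probe lies in the deleted part, so it checks nothing about the labels.

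Lifr and Egfr were the members whose null and wild-type arrays did not overlap on either diet, and each was read by 5 measured probes. Of all genes, 3.73% had null arrays wholly above wild-type arrays on the high-fat diet and 4.81% on the low-fat diet. The share of genes above on both diets is not given here. The probes of a gene are separate stretches of sequence: no pair of probes of 1 gene shared a run of more than 10 bases, over 46 pairs. The first 30 bases of each 60-base probe are shown so that the separate sites can be compared. Egfr lies on chromosome 11 and its measured probes began with these bases.
Egfr A_51_P392242: caagaggttaacactacggactagccattc
Egfr A_52_P106259: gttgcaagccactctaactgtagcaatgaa
Egfr A_52_P175190: ttgatttggatacaaagtgttgttactgta
Egfr A_52_P56471: caacactctggtctggaagtatgcagatgc
Egfr A_52_P674338: tggagcttatatttagggaactttgggatt
Lifr lies on chromosome 15 and its probes began as follows.
Lifr A_52_P579352: tgcactaaccagggataccaactgttacgt
Lifr A_51_P113182: agaacaaaccaaatgactaaccaggtcacc
Lifr A_52_P192699: atttattttactttcagaaaggagagagag
Lifr A_52_P297113: tccatcaattccaggcaattcttgattcct
Lifr A_52_P438170: gttaatcttttagacataaccctagaatat
The sixth Egfr probe, A_52_P5855, was above background on 1 of 12 arrays and gave no level.

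Egfr, the receptor for epidermal growth factor and transforming growth factor alpha, was higher in null than in wild-type livers with both diets. Its main probe, A_51_P392242, is spotted 10 times on each array. The log2 ratios were 1.21, 1.18 and 1.29 in null high-fat livers and 1.40, 1.48 and 1.27 in null low-fat livers. In wild-type livers they were -0.25, 0.03 and -0.36 on the high-fat diet and 0.15, 0.58 and -0.47 on the low-fat diet. Each of the 6 null arrays was above each of the 6 wild-type arrays. On the high-fat diet the groups averaged 1.23 ± 0.05 in null high-fat and -0.20 ± 0.20 in wild-type high-fat livers (SD, n = 3 each). On low fat they averaged 1.38 ± 0.11 in null and 0.08 ± 0.53 in wild-type livers (SD, n = 3 each). The difference was 1.42 on the log2 scale, or 2.68-fold, on the high-fat diet and 1.30, or 2.46-fold, on the low-fat diet, with an SE of 0.23 for both. Because the array mixes RNA of all cells in a sample, more cells that make a transcript and more transcript per cell cannot be told apart here or in any result that follows.

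The other measured Egfr probes separated the genotypes too. On the high-fat diet the 5 probes gave differences between 1.20 and 1.74, and on the low-fat diet between 1.14 and 2.39. In all 10 of these comparisons the 3 null arrays lay above the 3 wild-type arrays. They are probes of 1 gene on the same arrays, and the share over all probes is not given here. In diet comparisons the same probes did not move one way. High fat minus low fat was -0.28 in wild-type and -0.15 in null livers for the main probe, with overlapping arrays, and the 5 probes ranged from -0.28 to 0.40 in wild-type and from -0.35 to 0.40 in null livers.

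Lifr encodes the receptor for leukaemia inhibitory factor, which signals with Il6st to Stat3. Its brightest probe, A_52_P579352, gave 3.01, 2.87 and 3.63 in null high-fat livers and 2.18, 2.70 and 2.37 in null low-fat livers. Wild-type livers gave 1.41, 1.50 and 1.37 on the high-fat diet and -0.13, 0.98 and 0.50 on the low-fat diet. The 4 groups did not overlap at any step of their order, with null high-fat livers highest, then null low-fat, wild-type high-fat and wild-type low-fat livers. Group means were 3.17 ± 0.41 in null high-fat, 2.42 ± 0.26 in null low-fat, 1.43 ± 0.07 in wild-type high-fat and 0.45 ± 0.56 in wild-type low-fat livers (SD, n = 3 each). Null minus wild-type was 1.74 (3.35-fold) on the high-fat diet and 1.97 (3.92-fold) on the low-fat diet. High minus low fat was 0.75 (1.69-fold) in null and 0.98 (1.97-fold) in wild-type livers, and the SE of each of these 4 differences was 0.28.

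The 5 Lifr probes shared the direction and differed in size. For high minus low fat they ran from 0.07 to 0.75 in null livers, where 1 of 5 had arrays that did not overlap, and from 0.11 to 0.98 in wild-type livers, where 3 of 5 did. The mean of the 5 probes gave diet differences of 0.36 in null and 0.40 in wild-type livers. For genotype on the low-fat diet, all 5 had null arrays above wild-type arrays, with differences from 0.20 to 1.97. On the high-fat diet all 5 differences were above 0, from 0.27 to 1.74, but only A_52_P579352 had arrays that did not overlap. The next largest probe, A_52_P438170, differed by 0.85 on the high-fat diet and by 1.19 on the low-fat diet. The mean of the 5 probes differed by 0.77 and 0.82 on these diets. The size of the Lifr difference therefore depends on the probe. All 5 probes are assigned to the same RefSeq transcript in the files. The first wild-type low-fat array, which stood apart in its cell type markers, was the lowest array for the brightest Lifr probe. Without it the genotype difference on the low-fat diet was 1.68 for Lifr and 1.33 for Egfr, and the Lifr diet difference in wild-type livers was 0.69. The part of other cell types in these differences was not tested beyond this.

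**Figure D1:**
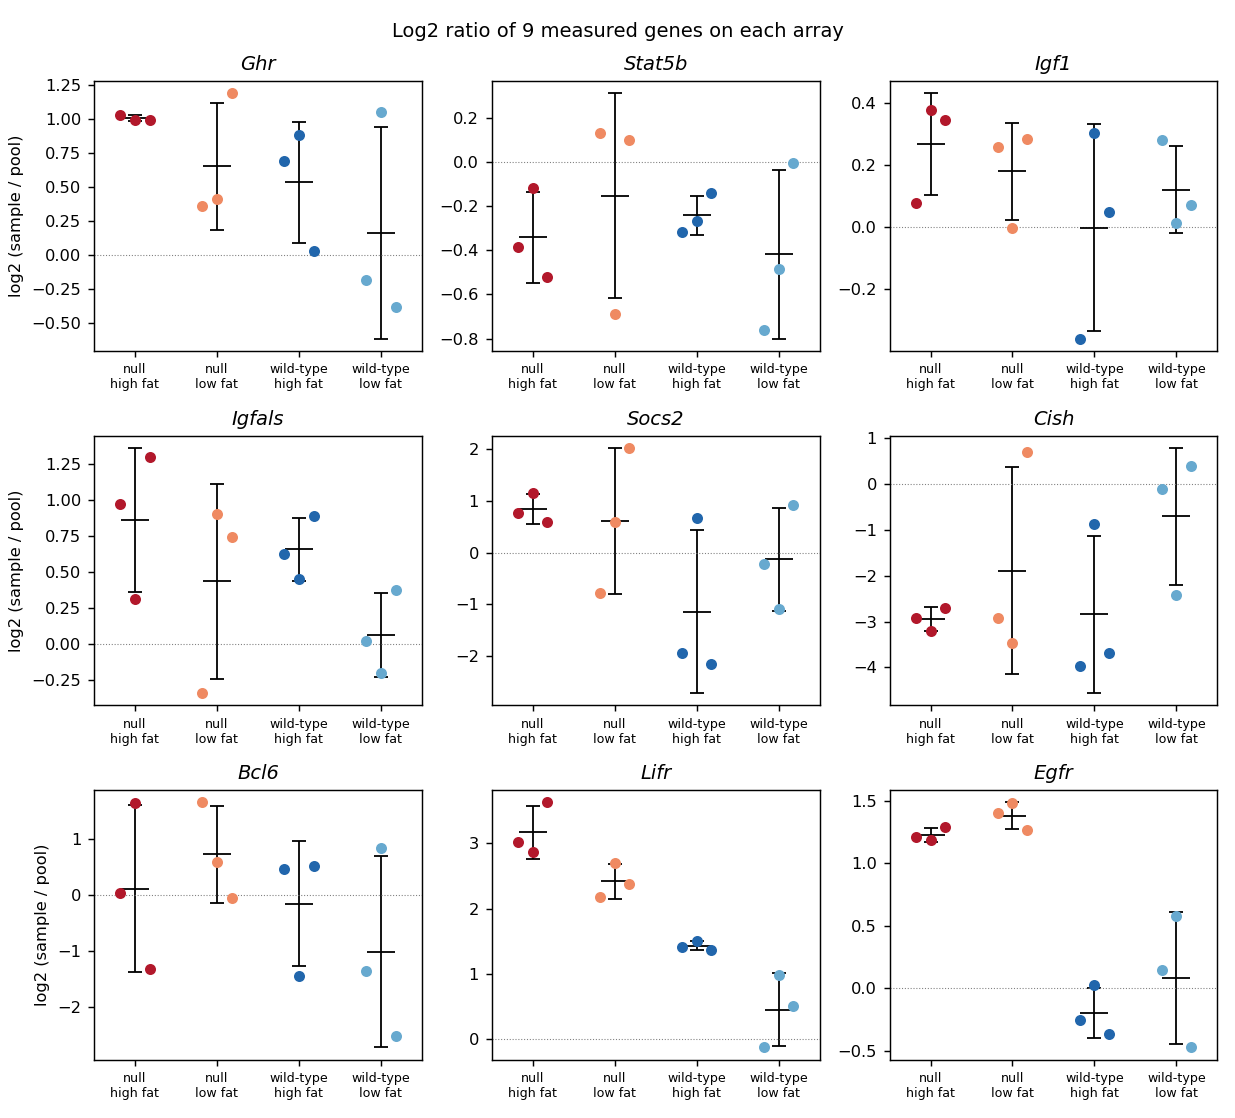
Log2 ratio of sample over wild-type low-fat pool (vertical axis, scale set per gene) for the main probe of each measured gene. Each point is 1 array, the bar is the group mean and the whisker 1 SD (n = 3), from left to right null high-fat, null low-fat, wild-type high-fat and wild-type low-fat livers; in Egfr the null arrays lie between 1.18 and 1.48 and the wild-type arrays between -0.47 and 0.58.

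**Figure D2:**
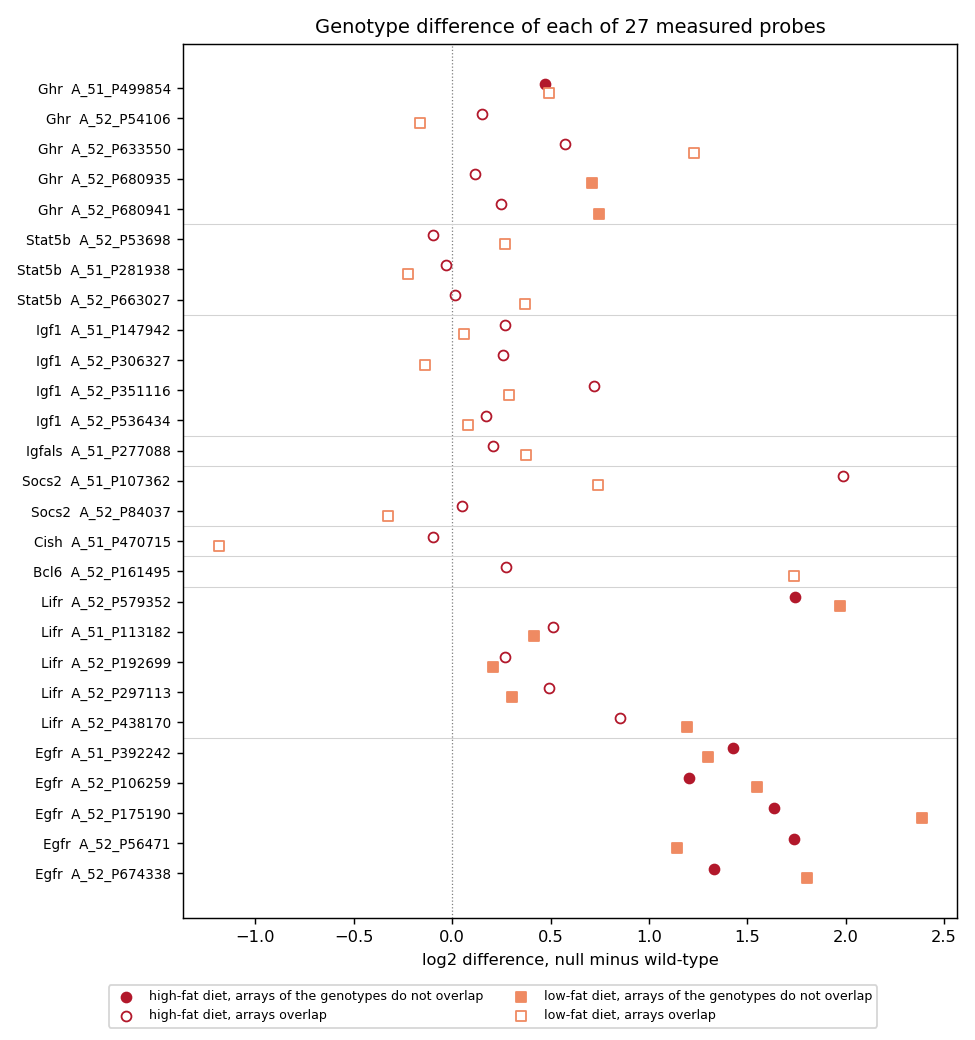
Null minus wild-type log2 difference (horizontal axis) for each of the 27 measured probes, with circles for the high-fat and squares for the low-fat diet. Filled symbols mark probes whose null and wild-type arrays do not overlap; all 10 Egfr symbols are filled, as are all 5 low-fat and 1 of 5 high-fat symbols of Lifr.

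The receptor at the top of the pathway, Ghr, had log2 ratios of 1.03, 0.99 and 0.99 in null high-fat livers and 0.36, 0.41 and 1.19 in null low-fat livers. Wild-type livers had 0.69, 0.88 and 0.03 on the high-fat diet and -0.18, 1.05 and -0.38 on the low-fat diet. In this probe, the brightest, the null high-fat arrays stood above the wild-type high-fat arrays, whereas the low-fat groups overlapped. Null minus wild-type was 0.47 on the high-fat and 0.49 on the low-fat diet, with an SE of 0.37, and high minus low fat was 0.35 in null and 0.37 in wild-type livers. The 5 Ghr probes ranged from 0.12 to 0.57 for the genotype difference on the high-fat diet and from -0.17 to 1.23 on the low-fat diet. Null arrays lay wholly above wild-type arrays in 1 of 5 probes on the high-fat and 2 of 5 on the low-fat diet. Those 2 were A_52_P680935 and A_52_P680941, with low-fat differences of 0.71 and 0.74, and both overlapped on the high-fat diet. In wild-type livers the same 2 probes had high-fat arrays wholly above low-fat arrays. The lowest low-fat genotype difference belonged to A_52_P54106 and the highest to A_52_P633550. Every other Ghr probe, these included, is assigned to a different transcript from the brightest probe.

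Stat5b, the transcription factor that carries the growth hormone signal, differed little between groups. Its ratios were -0.39, -0.12 and -0.52 in null high-fat livers and 0.13, -0.69 and 0.10 in null low-fat livers. They were -0.32, -0.27 and -0.14 in wild-type high-fat livers and -0.76, -0.49 and -0.01 in wild-type low-fat livers. The genotype differences were -0.10 on the high-fat and 0.27 on the low-fat diet (SE 0.25), and none of its 3 probes had groups that did not overlap in any comparison.

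Igf1, the growth factor that the liver releases into blood under growth hormone, had ratios of 0.08, 0.38 and 0.34 in null high-fat livers and 0.26, 0.00 and 0.28 in null low-fat livers. The wild-type values were -0.36, 0.30 and 0.05 on the high-fat diet and 0.28, 0.01 and 0.07 on the low-fat diet. All 4 groups overlapped. Null minus wild-type was 0.27 on the high-fat and 0.06 on the low-fat diet, with an SE of 0.19 that was small among the genes described here. Its probes disagreed in spread: A_51_P147942, averaged over 10 spots, spanned 0.74 over the 12 arrays, while A_52_P306327 spanned 3.48 and A_52_P351116 spanned 3.31.

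Igfals encodes the acid-labile subunit, which holds circulating IGF-1 and an IGF-binding protein in a stable complex. Its single probe gave 0.97, 0.32 and 1.30 in null high-fat livers and -0.34, 0.91 and 0.75 in null low-fat livers. Wild-type livers gave 0.63, 0.46 and 0.89 on the high-fat diet and 0.02, -0.20 and 0.37 on the low-fat diet. In wild-type livers the high-fat arrays lay above the low-fat arrays, with a difference of 0.59 (SE 0.34, 1.51-fold). In null livers the diet difference was 0.43, with overlapping arrays. The genotype differences were 0.21 on the high-fat and 0.37 on the low-fat diet and the arrays overlapped.

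Cish and Socs2 are suppressors of cytokine signalling that Stat5 induces within a short time of a growth hormone pulse, and Bcl6 is a repressor whose transcription Stat5 lowers. These 3 genes varied more within groups than the rest. Cish had ratios of -2.92, -3.20 and -2.69 in null high-fat livers and -2.91, -3.45 and 0.70 in null low-fat livers. In wild-type livers it had -3.98, -0.86 and -3.68 on the high-fat diet and -0.10, -2.41 and 0.40 on the low-fat diet. Only the null high-fat group was tight, with an SD of 0.26, and the other groups had SDs between 1.50 and 2.26. The 12 arrays spanned 4.68 log2 units, with the null low-fat array at 0.70 the highest and a wild-type high-fat array at -3.98 the lowest.

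Socs2 had ratios of 0.77, 1.16 and 0.59 in null high-fat livers and -0.79, 0.60 and 2.03 in null low-fat livers. Wild-type livers had -1.95, 0.67 and -2.16 on the high-fat diet and -0.21, -1.09 and 0.91 on the low-fat diet. The highest arrays of the null low-fat, wild-type high-fat and wild-type low-fat groups for Socs2 were the same arrays that were highest for Cish. Null minus wild-type for Socs2 was 1.99 on the high-fat diet with an SE of 0.82, and the groups overlapped through a single wild-type array at 0.67. It ranged from 1.02 to 2.90 over the alternatives, and was 2.63 in scan 1 and 0.49 in scan 2. The second Socs2 probe, A_52_P84037, was above background on 2 of 3 null and 1 of 3 wild-type high-fat arrays, and no difference is read from it.

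Bcl6 ran the other way. Its ratios were 0.04, 1.63 and -1.33 in null high-fat livers and 1.65, 0.59 and -0.06 in null low-fat livers, against 0.46, -1.45 and 0.51 in wild-type high-fat and -1.36, 0.85 and -2.52 in wild-type low-fat livers. In each of the 4 groups the array with the highest Cish had the lowest Bcl6, although the null high-fat arrays were close in Cish (SD 0.26). On the low-fat diet Bcl6 was 1.74 higher in null than wild-type livers, and on the high-fat diet 0.27 higher, with an SE of 0.93 and overlapping arrays in both. The genotype and diet differences of Cish were -0.10 and -1.19 for null minus wild-type on the high-fat and low-fat diet, and -1.05 and -2.14 for high minus low fat in null and wild-type livers, with an SE of 1.12.

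Across the 12 arrays, after the group means were taken away, the correlation was 0.86 between Socs2 and Cish, -0.72 between Cish and Bcl6 and -0.67 between Socs2 and Bcl6. With group means left in, the values were 0.56, -0.67 and -0.31. These are descriptions of 12 arrays that share 1 reference pool and 3 scans, and they are 3 of the 36 pairs of measured genes that were computed. Pairs outside these 3 genes were of similar size. With the group means taken away, Ghr and Egfr correlated at 0.67, Igfals and Bcl6 at -0.62 and Igf1 and Cish at 0.60. The labels give no hour of killing or time since feeding for a single sample. Leaving out the null low-fat array with the highest Cish turned the diet difference of Cish in null livers to 0.25, against -1.05 with it. Leaving out the wild-type high-fat array with the highest Cish turned the genotype difference on the high-fat diet to 0.89 for Cish and to -0.37 for Bcl6.

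**Figure D3:**
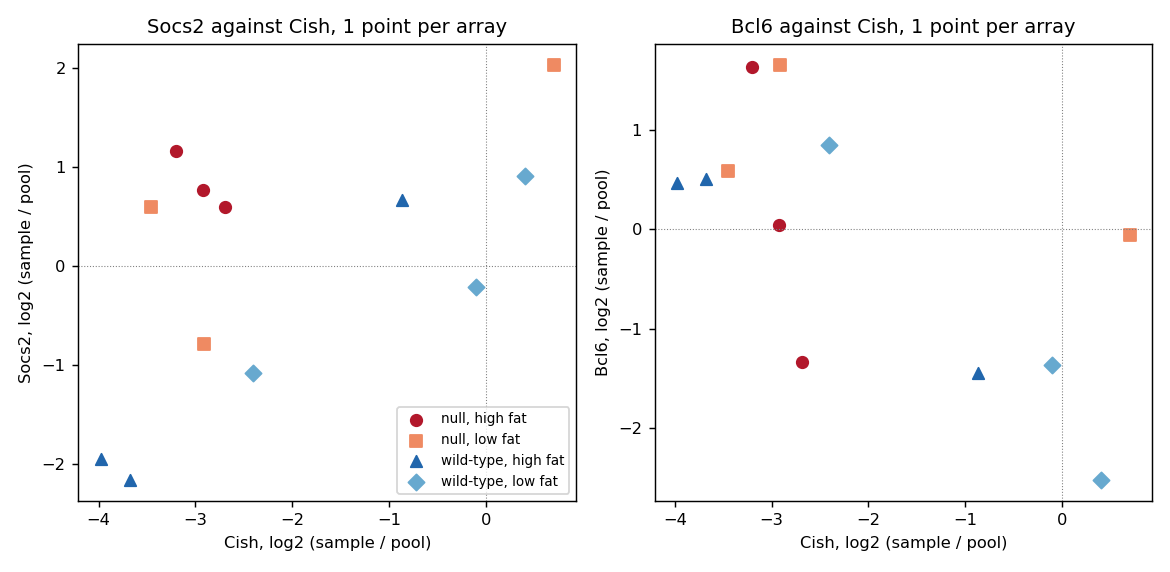
Log2 ratio of Socs2 (left) and Bcl6 (right) against that of Cish, 1 point per array, with circles for null high-fat, squares for null low-fat, triangles for wild-type high-fat and diamonds for wild-type low-fat livers. The 4 arrays with the highest Cish, from -0.86 to 0.70, have Bcl6 at or below -0.06, and the null high-fat arrays stay between -3.20 and -2.69 for Cish.

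Stat5 proteins bind DNA at the letters TTCNNNGAA, which read the same on both strands. This motif was searched in the window from 250 bases before to 50 bases after each annotated start, as given by RefSeq on build GRCm38.p6. Among all 32851 windows 8.3% held at least 1 match and 0.457% held at least 2. The 10 genes had 16 windows, from 9 genes, and 5 of these, from Igfals, Cish and Bcl6, held a match. The windows of Cish and of an inner start of Bcl6 are printed because both genes varied widely between arrays and held more than 1 match, with each match in capitals. Socs2, which varied as widely, was not among the windows used here.
Cish, chr9:107296409-107296708, plus strand: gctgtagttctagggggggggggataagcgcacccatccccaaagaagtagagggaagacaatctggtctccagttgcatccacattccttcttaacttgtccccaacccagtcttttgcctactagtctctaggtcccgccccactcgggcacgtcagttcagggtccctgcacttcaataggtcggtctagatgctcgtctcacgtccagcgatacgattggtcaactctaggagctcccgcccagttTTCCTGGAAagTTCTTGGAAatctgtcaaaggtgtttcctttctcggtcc
Bcl6, chr16:23981234-23981533, minus strand: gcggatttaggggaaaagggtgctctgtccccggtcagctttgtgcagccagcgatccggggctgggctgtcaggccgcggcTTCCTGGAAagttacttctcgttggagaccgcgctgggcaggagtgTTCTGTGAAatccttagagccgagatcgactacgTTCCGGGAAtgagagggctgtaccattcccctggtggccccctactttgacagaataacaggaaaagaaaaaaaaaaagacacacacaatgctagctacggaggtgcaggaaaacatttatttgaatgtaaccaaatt
In Cish the matches begin at the first base of the gene and 11 bases after it. In Bcl6 they begin 168, 122 and 88 bases before the start. A match is a run of letters and not a measured binding site.

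Lepr, the leptin receptor, could not be given a level. Its probe A_51_P396045 was above background on 2 of 12 arrays and A_52_P247900 on 5 of 12. Both had 2 wild-type low-fat arrays and no null low-fat array above background. The ratios of the low-fat groups overlapped in both probes, so no direction is given. Leprot, a separate gene, overlaps Lepr in the genome.

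The 10 genes were chosen with ratios from these arrays, so their differences are described and not tested. In the fit across 14911 genes, 0 of the 9 measured members passed an adjusted p of 0.05 in limma in any comparison. The background of calls was 0.0134% of genes for null against wild-type on the high-fat diet and 0.0201% on the low-fat diet. It was 0.00671% for the diet comparison in null livers, 0.00671% in wild-type livers (1 gene, and 0 genes in limma's paired fit of the 6 wild-type arrays, with 893 at an unadjusted p of 0.05) and 0% for the interaction, which asks whether the genotype difference depends on diet. Each gene had 1 value here, from its brightest measured probe. Members with arrays wholly above the other group were Ghr, Lifr and Egfr on the high-fat diet, where 3.73% of genes were. On the low-fat diet they were Lifr and Egfr, where 4.81% of genes were. They were Lifr for high against low fat in null livers (2.33% of genes) and Igfals and Lifr in wild-type livers (3.52%). No member lay wholly below, while 4.05%, 4.55%, 2.54% and 3.69% of genes did in these 4 comparisons. The median member difference was 0.27 for null against wild-type on the high-fat diet and 0.49 on the low-fat diet, against 0.00 and -0.01 over all genes. Nothing is read from these counts, since the same ratios chose the genes. For the interaction the members' median was -0.02, with -0.23 (SE 0.40) for Lifr and 0.13 (SE 0.32) for Egfr.

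The scans on which arrays were read held unequal shares of the groups, and the Egfr and Lifr differences were also taken within a scan. For Egfr, null minus wild-type was 1.50 in scan 1 and 1.16 in scan 2 on the high-fat diet, and 1.22 and 0.82 on the low-fat diet. The Lifr values were 1.91 and 1.36 on the high-fat diet and 2.67 and 1.20 on the low-fat diet. Within scans the Lifr diet difference was 0.79 and 0.69 in null livers and 1.55, 0.52 and 0.87 in wild-type livers, over scans 1 to 3. Igfals was higher on high fat in all 3 scans in wild-type livers, by 0.61, 0.66 and 0.52. The Cish diet difference in wild-type livers changed sign between scans, at -3.88, 1.54 and -4.08, and that of Socs2 did too, at -1.74, 1.75 and -3.08. For Ghr on the low-fat diet, null minus wild-type was 0.98 in scan 1 and -0.69 in scan 2. Null arrays were read in scans 1 and 2, and each value within a scan rests on 1 or 2 arrays per group. The only wild-type low-fat array of scan 1 was array 1, which stood apart in its cell type markers. Every scan 1 value that uses wild-type low-fat livers, here and below, rests on that array. The null low-fat arrays of scan 1 were on a different slide from it.

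The other genes of the pathway were read from 7 lists of 129 genes, of which 106 were measured. In limma's fit 2 of these genes passed for null against wild-type on both diets, Moxd1 and C8b, both higher, and 0 passed in the diet comparisons and the interaction. With Agilent's own processed signals 6 passed on the high-fat diet (3 higher and 3 lower) and 7 on the low-fat diet (3 higher and 4 lower), whereas with median centring or with plain ratios 0 passed on either diet. At an unadjusted p of 0.05 the counts were 18 on the high-fat and 23 on the low-fat diet for genotype, 5 in null and 10 in wild-type livers for diet, and 1 for the interaction. The shares of all genes at that unadjusted p were 2.56%, 7.22%, 1.9%, 4.03% and 0.899% in the same order.

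Sex-biased genes that depend on the growth hormone pattern had the list medians farthest from 0. These lists were chosen with earlier results of these data known, so their directions and counts are not independent evidence. Of 14 measured male-biased genes, 14 were above 0 for null minus wild-type on each diet, and 2 passed. Of all genes 50.7% were above 0 on the high-fat and 49.1% on the low-fat diet. The median of the male-biased list was 0.99 on the high-fat and 1.40 on the low-fat diet. Within scans 12 of 14 were above 0 on the high-fat diet in scans 1 and 2, and 14 and 9 of 14 on the low-fat diet. The first wild-type low-fat array again stood apart, with a median of -0.11 over these genes where the other wild-type arrays had 0.50 to 1.21, and without it the low-fat median was 0.94 with 14 of 14 above 0. Moxd1, a monooxygenase-like gene, had ratios of 3.07, 3.81 and 3.22 in null high-fat livers and 4.62, 3.46 and 2.53 in null low-fat livers. All wild-type arrays of Moxd1 lay between -0.14 and 0.51. The difference was 3.42 (SE 0.42, limma adjusted p = 0.0347) on the high-fat diet and 3.39 (SE 0.42, limma adjusted p = 0.0256) on the low-fat diet. C8b, a part of the membrane attack complex of complement, differed by 1.42 on both diets with an SE of 0.14 (limma adjusted p = 0.00678 on the high-fat and 0.00699 on the low-fat diet). Its null arrays ran from 1.30 to 1.74 and its wild-type arrays from 0.06 to 0.23. On the high-fat diet the call of Moxd1 was lost in 7 of 12 fits with 1 array left out, which were those without any of the 6 high-fat arrays or without null low-fat array 2, with adjusted p of up to 0.284. That of C8b was lost in 5 of 12, without a wild-type array on high fat or without null high-fat array 1 or 3, with adjusted p of up to 0.0826. On the low-fat diet Moxd1 lost its call in 7 of 12 (each of the 3 high-fat arrays of wild-type livers, wild-type low-fat array 3, null low-fat array 2, and null high-fat array 1 or 3), with adjusted p of up to 0.120, and C8b in 0 of 12.

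Of 16 measured female-biased genes, 15 were below 0 for null minus wild-type on each diet, with medians of -0.95 on the high-fat and -1.25 on the low-fat diet, and 0 passed in limma. At an unadjusted p of 0.05 the counts were 11 and 12. Cyp4a14, a fatty acid hydroxylase that is also a target of Ppara, had ratios of -4.65, -5.40 and -6.01 in null high-fat livers and -6.07, -6.28 and -4.19 in null low-fat livers. Its wild-type ratios were 0.54, -0.77 and 0.38 on the high-fat diet and -0.35, -2.09 and 1.13 on the low-fat diet. The arrays did not overlap. The differences were -5.41 (limma adjusted p = 0.0882) and -5.08 (limma adjusted p = 0.0760). In scan 1 the female-biased list had 16 of 16 genes below 0 on the high-fat diet and 15 of 16 on the low-fat diet, and in scan 2 it had 15 and 13 of 16.

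The lists nearest to the receptors themselves stayed close to 0. Of 9 measured JAK and STAT genes, 5 were above 0 for null minus wild-type on the high-fat diet and 1 on the low-fat diet, with medians of 0.02 and -0.20, and 0 passed. Stat3, the main transcription factor downstream of Lifr, averaged -0.73 ± 0.44 in null and -0.60 ± 0.40 in wild-type livers of high-fat mice, and -0.45 ± 0.13 in null and 0.26 ± 0.38 in wild-type livers of low-fat mice (SD, n = 3 each). Its low-fat difference was -0.70 with a limma adjusted p of 0.600. The 20 brakes and adaptors, which include Socs3 and the phosphatase Ptpn1, had medians of 0.01 and -0.05 on these diets. The 23 measured class I and II cytokine receptors had medians of 0.02 and -0.19. Without wild-type low-fat array 1, 6 of the 9 JAK and STAT genes were above 0 on the low-fat diet with a median of 0.05, so the direction of that list rests on 1 array, and the median of the receptors was -0.0044. Prlr, the prolactin receptor and a close relative of Ghr, was lower in null livers without passing, at -0.52 on the high-fat diet and -0.40 on the low-fat diet (limma adjusted p = 1.00 and 0.700), with arrays that did not overlap.

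In the IGF list 14 genes were measured and 0 passed. The medians for null minus wild-type were 0.03 on the high-fat and -0.08 on the low-fat diet. Igfbp1, a binding protein that insulin represses in liver, had ratios of -5.92, -3.65 and -6.43 in null high-fat livers and -0.09, -3.51 and -2.34 in null low-fat livers. Wild-type livers had -3.63, -2.23 and -3.30 on the high-fat diet and -0.25, -1.55 and -1.34 on the low-fat diet. Null minus wild-type for Igfbp1 was -2.28 on the high-fat diet (SE 0.87) and did not pass. The null arrays there lay wholly below, but narrowly, with -3.65 against -3.63. On the low-fat diet it was -0.94, with overlapping arrays. High-fat arrays lay wholly below low-fat arrays in both genotypes. The diet difference was -3.35 in null and -2.01 in wild-type livers with an SE of 0.87 (limma adjusted p = 1.00 in both). In a paired fit of the 6 wild-type arrays the SE was 0.50 and the limma adjusted p was 0.826. Within scans it was -3.25 and -3.56 in null livers and -3.38, -0.68 and -1.96 in wild-type livers. The EGF family list holds ligands, receptors and regulators of this receptor family, and not all of its ligands bind Egfr. Among its 10 measured genes, medians were -0.01 on the high-fat and 0.02 on the low-fat diet for null minus wild-type. Nrg4 was lowest at -0.52 and -0.96 on these diets, with limma adjusted p of 1.00 and 0.526.

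**Figure D4:**
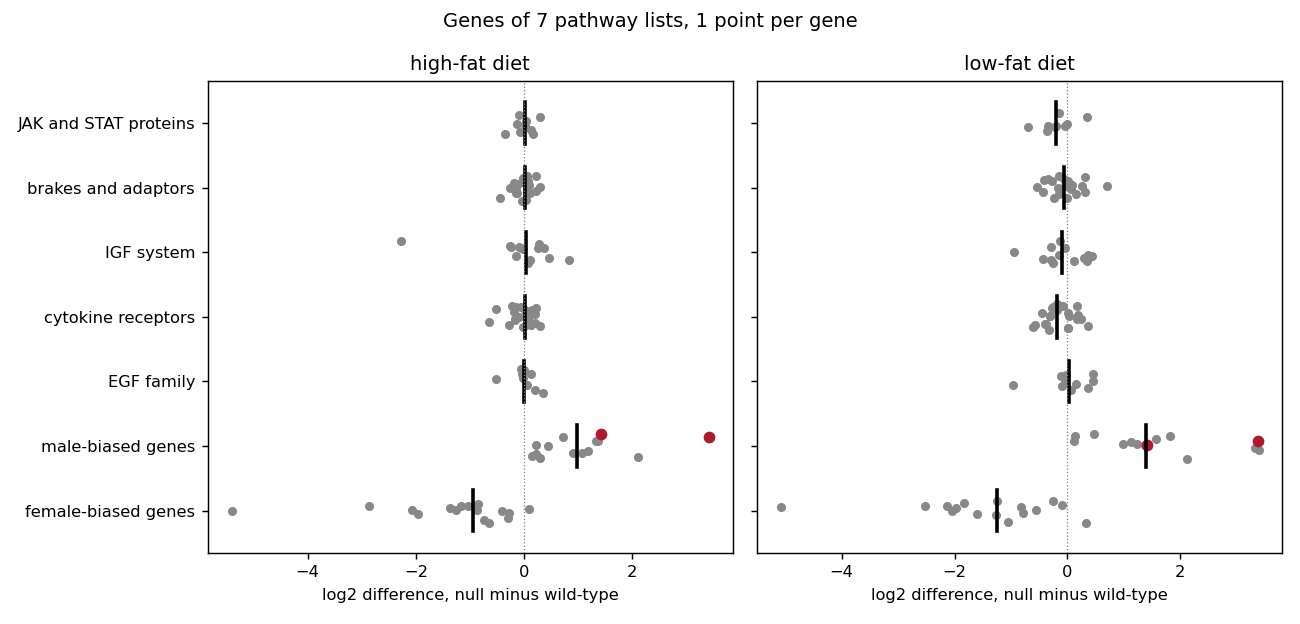
Null minus wild-type log2 difference (horizontal axis) of each measured gene in 7 lists, on the high-fat (left) and low-fat diet (right). Each point is 1 gene, the black bar is the list's median and red points passed limma's adjusted p of 0.05; the male-biased list has medians of 0.99 and 1.40 and the female-biased list -0.95 and -1.25, while the other 5 lists have medians between -0.20 and 0.02 on the low-fat diet and between -0.01 and 0.03 on the high-fat diet.

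For Lifr, Cish and Socs2, the members with the widest range of group means, the genes with the most similar pattern over the 12 arrays were listed. Lifr was most like Nudt7 (r = 0.96), Slc22a28 (r = 0.95) and Hsd3b3 (r = 0.94). Cish was most like Plk3 (r = 0.87), Rhou (r = 0.81) and Jun (r = 0.79). The closest matches of Socs2, at r of 0.85 to 0.82, were 3 transcripts with no gene symbol here. Points are single arrays that share the pool and the scans, and group differences are part of these values.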

How the data were processed

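RNA of 12 liver samples was measured on two-colour Agilent arrays. Per the file headers, the deposited intensity values are the mean pixel brightness of a spot and its median local background in each colour, by spot analysis 9.1.3.1. The log10 ratios set Cy5 over Cy3 after the scanner software's own background and dye correction, per the file headers. The authors' deposited table of log2 ratios, from limma according to the submitters' processing notes, equals group mean differences of those log10 ratios (within 5e-10 over 43379 spots), and none of its values are printed.

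Ratios were recomputed with limma 3.58.1 (R 4.3.3): normexp background correction (offset 50), then log2 of Cy3 over Cy5 with loess inside each array. The 120 spots marked non-uniform were dropped, and 245 repeated probes were averaged over their spots. Of 41174 probes 21490 were measured, and a gene took the brightest of its measured probes, which gave 14911 genes. A single linear model held the 4 group means of all 12 arrays, with 8 residual and 3.17 prior degrees of freedom. P-values were adjusted by Benjamini and Hochberg's method across every gene, with 0.05 as the threshold. No dyes were swapped. The steps were tested on simulated data.

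The members and the 7 gene lists were chosen with earlier results of these data known, so the directions of the lists are not independent evidence. Named genes were the members, Cyp1b1, list genes past the threshold or otherwise the 2 with the smallest p, and the 3 genes most like each of 3 members with the widest range of group means. The number of arrays limits the precision. Replicate numbers paired the arrays for diet in wild-type livers, where arrays of 1 number share scan and slide and their deviations correlated at 0.33, 0.34 and 0.46. In the other comparisons not every pair was above 0.1. Alternatives were other signals and normalisations, no filter on dim probes, the mean of probes, blocks for scan, slide and replicate number, and leaving out each array.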

Additional observations from a re-analysis of the deposited data

How the results depend on the processing

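For the pathway lists, counts past the threshold of null against wild-type were 2 on the high-fat and 2 on the low-fat diet. They became 6 and 7 with Agilent's processed signals, 0 and 0 with median centring, 0 and 0 with plain ratios, and 1 and 1 with no filter on dim probes. With slide as a block the low-fat count was 1, and leaving out 1 array gave 0 to 3 on the high-fat and 1 to 8 on the low-fat diet, with 8 without wild-type low-fat array 2. Over all genes the counts were 2 and 3. They became 51 and 56 with Agilent's signals (20 higher and 31 lower, and 24 higher and 32 lower, against 2 and 0, and 2 and 1), 0 and 0 with median centring or plain ratios, and 1 and 1 with no filter. Scan as a block gave 5 on the high-fat diet, slide as a block 1 on the low-fat diet, and leaving out 1 array 0 to 8 and 1 to 28. For diet, 1 gene passed in each genotype. In wild-type livers this became 5 with Agilent's signals and 0 with median centring, plain ratios, no filter, or scan, slide or replicate block. In null livers it became 0 with median centring, plain ratios and slide as a block, and leaving out 1 array gave 0 to 1 in both genotypes. The list counts for diet and all counts for the interaction were 0 under every alternative run. With the replicate block the list counts were 1 on the high-fat and 1 on the low-fat diet and the counts over all genes 1 and 1. For diet in wild-type livers the numbers pair the arrays, and a fit of those 6 arrays with the replicate block, chosen after seeing the data, called 0 of 14897 genes and 0 list genes in limma (893 and 11 at an unadjusted p of 0.05). In the other comparisons same-numbered arrays correlated at -0.57 to 0.57 and the numbers do not pair them. Arrays of the same scan had a median of 0.38 and arrays of different scans -0.18. The cause of these changes was not tested. Of the 9 measured members, 2 on the low-fat and 1 on the high-fat diet passed with Agilent's signals, where 56 and 51 of all genes did. Without wild-type low-fat array 2, 2 members passed on each diet. The count of all genes in that fit alone is not given here. Over all fits with 1 array left out it was at most 28 on the low-fat and at most 8 on the high-fat diet. Nothing is read from these member counts, since the same ratios chose the members. Egfr and Lifr stayed higher in null livers under all 20 alternatives, from 1.27 to 1.94 and 0.77 to 2.31 on the high-fat diet and from 1.02 to 1.91 and 0.82 to 2.51 on the low-fat diet. Keeping the sign was not particular to Egfr and Lifr. Igf1 also kept its genotype sign in all 20 on both diets. So did Ghr and Socs2 on the high-fat diet, and Bcl6, Cish and Stat5b on the low-fat diet. With slide as a block the low-fat genotype difference was -0.27 for Ghr, -1.01 for Socs2 and -0.04 for Igfals. Without a block these were 0.49, 0.74 (SE 0.82) and 0.37. Slide 1 held only null low-fat arrays, and slide 3 alone held both genotypes on low fat, with 1 array each.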
